A study of Bos taurus with 9 samples.

Results

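Lysosomes break down proteins, sugars, glycolipids and lipids in an acidic lumen. The lumen is acidified by the vacuolar proton pump, in which a peripheral V1 sector hydrolyses ATP and a membrane V0 sector moves protons. The hydrolases work best at this low pH, and highly glycosylated membrane proteins line the inner face of the lysosome. Cells of the nucleus pulposus, the gelatinous centre of the intervertebral disc, live in a tissue whose osmolality changes with load, and lysosomal cathepsins are among the proteases studied there in matrix turnover. The genes described here include the proton pump subunits and accessory proteins whose symbols begin with ATP6V or ATP6AP. They also include the cathepsins named with a single letter other than CTSK, and a list of lysosomal hydrolases, activators and membrane proteins. They were chosen by symbol: 23 genes followed the naming patterns and 27 of 29 listed genes had a probe set annotated to their symbol alone, which gave 50 of the 9155 genes with such a probe set. GLA and GM2A were not analysed here. Each gene was read from its brightest probe set over the arrays.

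The cells were nucleus pulposus cells from caudal discs of young calves, plated in serum-containing medium, and their RNA was hybridised to 1-colour bovine expression arrays. In 3 groups of 3 arrays the cells were untreated controls, or were kept for 5 h or for 24 h in medium brought to 500 mOsm/kg with salt. The labels give the replicates as biological, without saying whether they came from different animals, so the p-values reflect only how far these cultures spread. The labels give the controls no time of their own, and the same 3 control arrays served both salt times, so time in culture and salt cannot be told apart. The values are intensities with no read depth behind them, and the number of arrays limits their precision. Differences are given on the scale of log2(intensity + 16), with a standard error (SE) from a limma fit over all 9 arrays, and a gene is called where its p, adjusted over all 18012 probe sets tested, is under 0.05.

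The arrays fell apart by replicate number as well as by time. The first principal component, with 47.7% of the variance, set the 3 arrays numbered 3 apart from the other 6, and the second, with 31.1%, set the 3 arrays of 24 h apart. Every one of the 9 arrays correlated best with arrays of its own number after group means were removed, so a second limma fit held the number as a block. Among nucleus pulposus markers, the aggrecan gene ACAN read 497 to 2139 in control and COL2A1, the type II collagen gene, 40.0 to 329.7. The keratins KRT8 and KRT19 and the notochordal signal SHH lay below the filter on low values, and KRT18 passed it at 11.3 to 31.8. VCAN read 284.9 to 498.4, CDH2 1410.3 to 2056.2, SLC2A1 673.6 to 1099.9 and BNIP3 1940.7 to 3456.2. Among annulus and tendon-type fibroblast markers, COL1A1 read 1398.6 to 4832.8 in control, COL1A2 8686 to 11502.7 and TNC 10267.7 to 14599.2. COL12A1 read 851.8 to 1383.2 and THY1 113.9 to 153.4, and TNMD lay below the filter. In RNA from whole cultures, fewer cells of a type and less RNA per cell cannot be told apart.

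Of the 50 genes, 46 passed the filter on low values and 4 did not. CTSW, the kidney-type and osteoclast-type pump subunits ATP6V0A4 and ATP6V0D2, and the kidney-type subunit ATP6V1B1 were too dim to test, and their highest reading on any array was 24.6, for ATP6V1B1 at 24 h.

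After 24 h in salt, lysosomal genes rose in 7 of the 8 classes into which the set was divided, the pump's accessory proteins being the exception. Of 46 genes tested, 11 rose and 0 fell in the limma fit, against 4.28% of all probe sets that rose and 4.32% that fell. They were the membrane proteins SCARB2 and LAMP2, the sphingolipid activator PSAP, the hexosaminidase HEXA, the proteases CTSB, CTSF and LGMN, and 4 pump subunits, ATP6V0A1, ATP6V0E1, ATP6V1A and ATP6V1E1. The median difference over the 46 genes was 0.52, with a range of -0.24 to 1.14, beside a median of 0.02 and quartiles of -0.24 and 0.27 over all probe sets. With the replicate number as a block 33 rose and 0 fell, against 18.3% and 17.5% of all probe sets. All 11 genes called without the block were among the 33. The same shares of all probe sets stand beside the counts by class given below for 24 h against control.

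The direction was shared more widely than the calls. In 43 of the 46 genes the mean was higher at 24 h than in control, against 52.8% of all probe sets, and 38 were higher in all 3 replicate numbers, against 33.3%. In 21 genes the 3 arrays of 24 h lay wholly above the 3 controls, against 13.9% of probe sets, and in 0 they lay wholly below, against 13.5%. At an unadjusted p under 0.05, 22 genes were higher and 0 lower, against 11.8% and 11.7%. ATP6V1D, a V1 stalk subunit, was the 1 gene lower at 24 h in all 3 numbers.

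**Figure D1:**
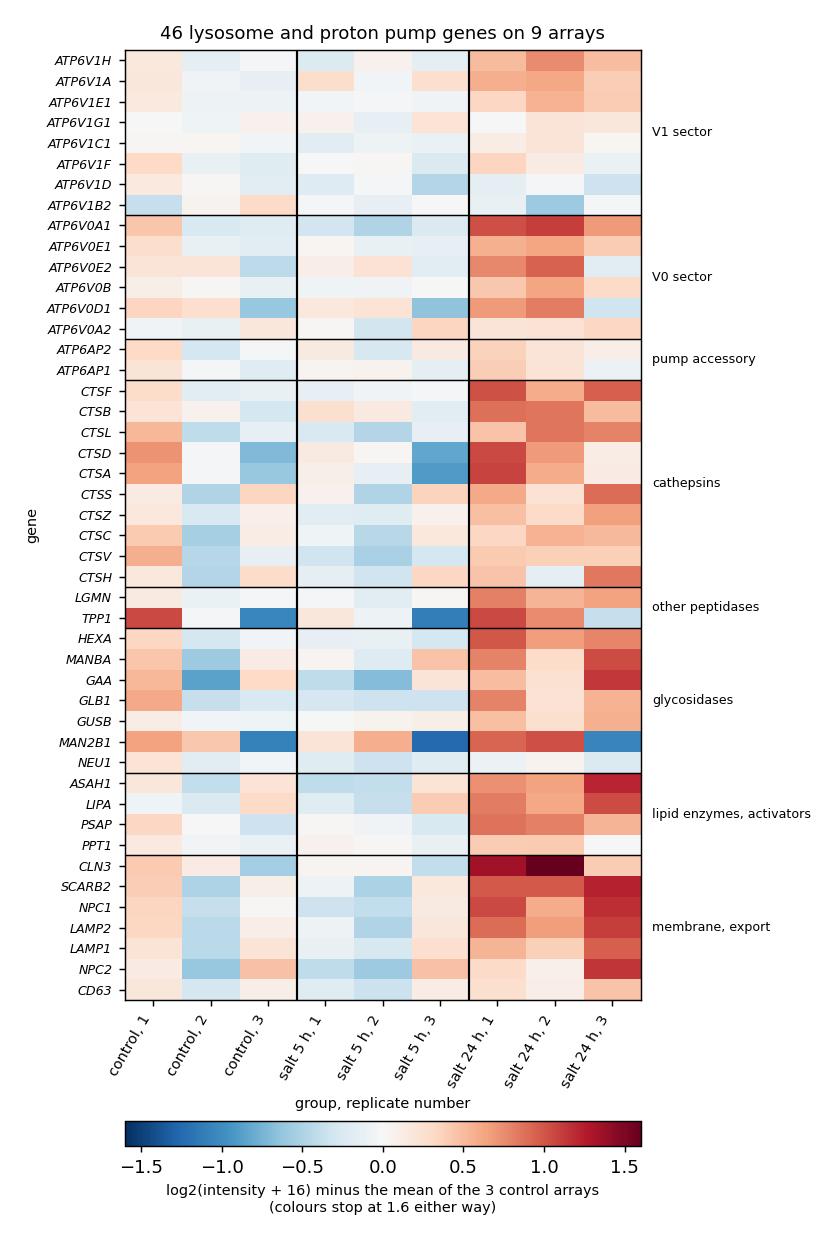
Heat map of log2(intensity + 16) minus the mean of the 3 control arrays for the 46 tested genes (down the page, by class) on each of the 9 arrays (across, by group and replicate number); red is higher and blue lower. The 3 columns of 24 h are red in most classes, and control replicate 1 is redder than the other controls. Pale 24 h cells are found in the V1 sector, in the accessory proteins and in NEU1. Among the blue 24 h cells are those of MAN2B1, TPP1 and ATP6V0D1 in replicate 3.

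The 7 lysosomal membrane and export genes had a median difference of 0.89, and all 7 rose with the block. SCARB2, the receptor that carries glucocerebrosidase to the lysosome, read 5343, 5355 and 6367 on the 24 h arrays, against 3547, 1913 and 2885 in control. The groups did not overlap, and the difference was 1.07 ± 0.24 (SE, limma adjusted p = 0.029). LAMP2, a main glycoprotein of the lysosomal membrane that also serves chaperone-mediated autophagy, read 2880.4, 2477 and 3353 at 24 h, against 1947, 1143 and 1659 in control, a difference of 0.89 ± 0.23 (adjusted p = 0.049). Its lowest 24 h array was above its highest control, which was replicate 1.

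Both parts of the cholesterol export pair were among the genes called with the block alone. NPC1, the membrane protein that exports cholesterol, read 530.4, 381 and 581 at 24 h, against 318, 187 and 251 in control, without overlap, and the difference of 0.95 ± 0.25 missed the threshold without the block (adjusted p = 0.053; 0.0013 with it). NPC2, the soluble protein that hands cholesterol to NPC1, read 2411, 2044 and 4301 at 24 h, against 2132, 1268 and 2691 in control. Those groups overlapped, because the array numbered 3 was the highest of its group each time, and the limma adjusted p was 0.51 without the block and 0.0079 with it.

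CLN3, the membrane protein lost in a juvenile form of neuronal ceroid lipofuscinosis, had the largest difference of the 46 genes, 1.14 ± 0.36, and was not called without the block (adjusted p = 0.087; 0.00077 with it). Its arrays read 501, 632 and 255 at 24 h, against 256, 207 and 124 in control, so the lowest 24 h array lay just under the highest control. LAMP1, the other main membrane glycoprotein, read 3301, 2924 and 4366 at 24 h, against 2631, 1659 and 2609.9 in control, without overlap. CD63, a tetraspanin of late endosomes and lysosomes, differed by 0.27 ± 0.16 and overlapped with control. Both were called with the block alone, LAMP1 at an adjusted p of 0.0018 and CD63 at 0.029.

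The 4 lipid enzymes and activators had a median difference of 0.78, and again all 4 rose with the block. PSAP, the precursor of the saposins that present sphingolipids to their hydrolases, read 2977, 2849 and 2354 at 24 h, against 2031, 1626 and 1278 in control. It rose by 0.74 ± 0.18 (limma adjusted p = 0.038), with every 24 h array above every control. ASAH1, the acid ceramidase, read 1966, 1848 and 2780.2 at 24 h, against 1346, 892 and 1373 in control. LIPA, the acid lipase that splits cholesteryl esters and triglycerides, read 1053, 912 and 1232 at 24 h, against 560.0, 499 and 733 in control. Neither overlapped with control, and both lay just outside the threshold without the block, at adjusted p = 0.066 for ASAH1 and 0.064 for LIPA, and inside it with the block, at 0.00075 and 0.00038. PPT1, which removes palmitate from proteins, had the smallest difference of the class, 0.27 ± 0.15.

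Of the 7 glycosidases 1 rose without the block and 5 with it, and their median difference was 0.53. HEXA, the alpha subunit of beta-hexosaminidase, read 449.6, 355 and 387 at 24 h, against 278, 175 and 210.0 in control, and rose by 0.82 ± 0.19 (limma adjusted p = 0.036). The groups were well separated. MANBA, the beta-mannosidase, was second by size at 0.71 ± 0.31 (adjusted p = 0.21; 0.0053 with the block), but its lowest 24 h array, 401, was under its highest control, 446.

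The other glycosidases spread over a wide range. GUSB, the beta-glucuronidase, read 1697, 1440.1 and 1791 at 24 h, against 1306, 1174 and 1146 in control, without overlap (difference 0.43 ± 0.12, limma adjusted p = 0.06; 0.0073 with the block). GLB1, the beta-galactosidase, and GAA, the acid alpha-glucosidase, differed by 0.53 ± 0.26 and 0.62 ± 0.41, and in both the control numbered 1 reached into the 24 h range. NEU1, the lysosomal sialidase, read 111, 125 and 99.6 at 24 h, against 142, 105 and 116 in control, a difference of -0.09 ± 0.17 that missed the threshold in both fits (adjusted p = 0.84 and, with the block, 0.64).

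Among the 10 cathepsins tested, 2 rose without the block and 8 with it, and the median difference was 0.59. CTSF, a cysteine protease, read 363, 266 and 349 at 24 h, against 215, 149 and 157 in control, and rose by 0.85 ± 0.19 (limma adjusted p = 0.03). CTSB, a cysteine protease with endopeptidase and peptidyl-dipeptidase action, read 2334, 2288 and 1792 at 24 h, against 1464, 1319 and 1037 in control. It rose by 0.74 ± 0.18 (limma adjusted p = 0.038). In both genes all 3 arrays of 24 h lay above all 3 controls, and the difference held within every number: 0.67, 0.79 and 0.78 for CTSB.

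The other cathepsins were higher on average, and of these CTSZ alone did not overlap with control. CTSZ, a carboxypeptidase, read 3070.2, 2703 and 3455 at 24 h, against 2454, 1841 and 2321 in control, and differed by 0.48 ± 0.15 (limma adjusted p = 0.083; 0.003 with the block). CTSL, a potent endopeptidase, read 83.4, 114 and 109 at 24 h, against 88.7, 38.5 and 49.8 in control, so control replicate 1 was above 1 of the 24 h arrays (0.70 ± 0.25, adjusted p = 0.13; 0.031 with the block). CTSD, the main aspartic protease of the lysosome, differed by 0.62 ± 0.41, and CTSA, the serine carboxypeptidase that protects the beta-galactosidase and the sialidase, by 0.60 ± 0.38. Each of these last 2 was called with the block alone, at adjusted p = 0.0062 for CTSD and 0.003 for CTSA, as was CTSS, a cysteine protease of antigen processing, at 0.0015. CTSH, an aminopeptidase, had the smallest difference, 0.38 ± 0.30.

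CTSC, which activates granule serine proteases, and CTSV, a close relative of CTSL, were the 2 cathepsins called in neither fit. CTSV read 2053, 2003 and 1993 at 24 h, against 2304, 1107 and 1399 in control: the 24 h arrays were tight and the controls were not, with replicate 1 above all of 24 h. The difference was 0.40 ± 0.23 (limma adjusted p = 0.37; 0.097 with the block).

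The 2 further peptidases differed in their spread. LGMN, the asparaginyl endopeptidase that trims and activates cathepsins, read 1957, 1630.0 and 1740.0 at 24 h, against 1232, 1027 and 1086 in control. It rose by 0.66 ± 0.13 with the smallest adjusted p of the 46 genes without the block (limma, 0.018), and by 0.66, 0.66 and 0.67 within the numbers. TPP1, a tripeptidyl peptidase, read 334, 268 and 114 at 24 h, against 334, 149.9 and 65.8 in control, and its difference of 0.48 ± 0.58 was called in neither fit (adjusted p = 0.72 and, with the block, 0.053).

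**Figure D2:**
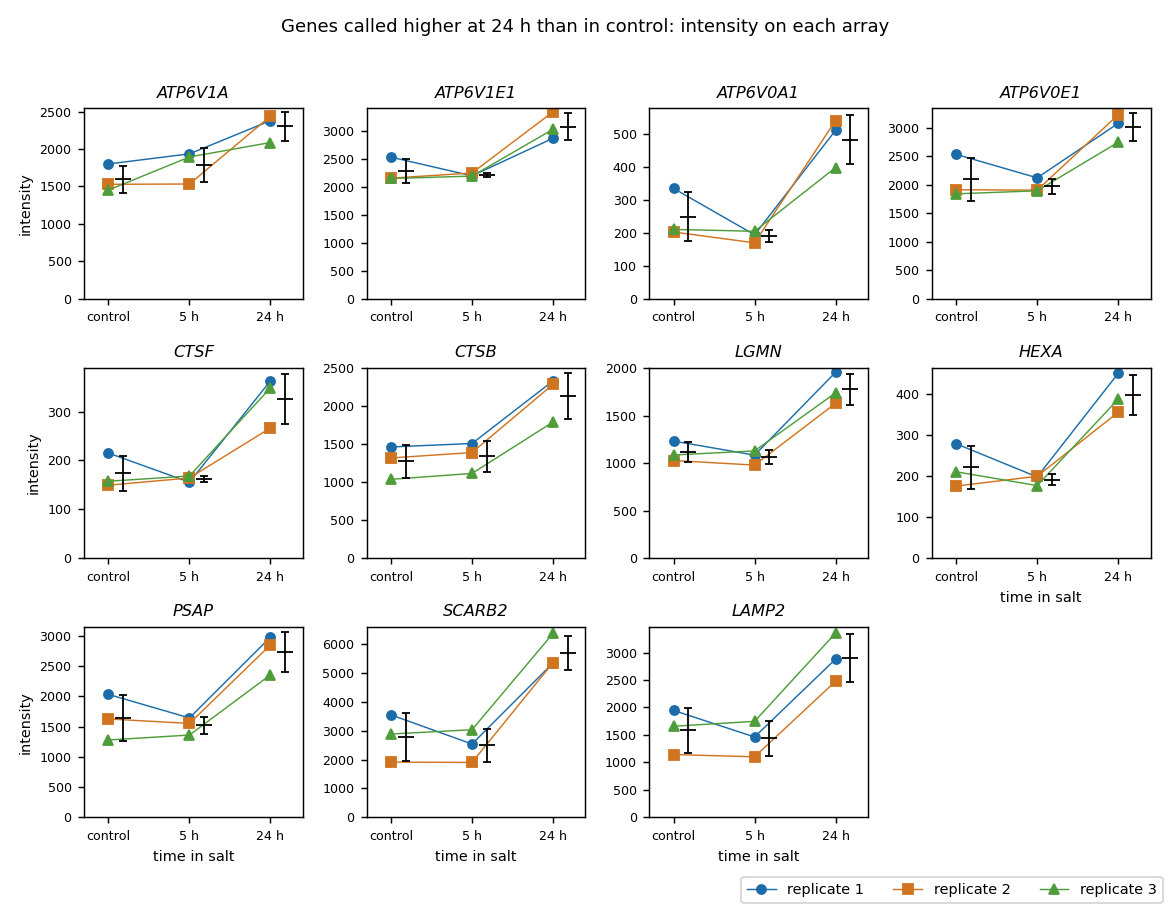
Intensity (vertical axis, from 0) of the 11 genes called higher at 24 h than in control, for control, 5 h and 24 h (horizontal axis). Coloured points joined by lines are single arrays by replicate number, and the black bar beside them is the mean with its SD (n = 3). In every panel the 3 arrays of 24 h lie above the 3 controls.

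In the membrane sector of the proton pump, 2 of the 6 subunits of the set tested rose without the block and 5 with it. Their median difference was 0.49. TCIRG1, an a isoform of this sector left out of the set by its symbol, differed from control by 0.1 ± 0.17. It was called in neither fit against control (limma adjusted p = 0.82 and, with the block, 0.46). Against 5 h it was called higher with the block alone (0.42 ± 0.17, limma adjusted p = 0.0067). ATP6V0A1, the a1 isoform of the large subunit through which protons pass, read 511, 540.4 and 398 at 24 h, against 335, 202 and 210.3 in control, and rose by 0.94 ± 0.22 (limma adjusted p = 0.036). ATP6V0E1, a small membrane subunit, read 3075, 3226 and 2743 at 24 h, against 2532, 1912 and 1839 in control, and rose by 0.53 ± 0.14 (adjusted p = 0.049). Both were free of overlap. ATP6V0B, a proteolipid of the rotating ring, read 1470.4, 1692 and 1339 at 24 h, against 1160.5, 1094 and 999.5 in control (0.46 ± 0.13, adjusted p = 0.057; 0.0065 with the block).

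ATP6V0E2, the second isoform of the small e subunit, and ATP6V0D1, which links the ring to the central stalk, were called with the block alone, at limma adjusted p = 0.025 and 0.006. ATP6V0A2, an a isoform known from Golgi and endosomes, had the smallest difference of the sector, 0.26 ± 0.19. It read 392, 399.8 and 432 at 24 h, against 324, 312 and 385 in control, which did not overlap, and it was called in neither fit (adjusted p = 0.5 and, with the block, 0.13).

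The peripheral V1 sector was split. Of its 8 subunits tested, 2 rose without the block and 3 with it, and the median difference was 0.13. ATP6V1A, the catalytic subunit, read 2378, 2437 and 2086 at 24 h, against 1799.6, 1528 and 1451 in control, and rose by 0.53 ± 0.14 (limma adjusted p = 0.048). ATP6V1E1, a subunit of the peripheral stalks, read 2869, 3341 and 3029.6 at 24 h, against 2532, 2156 and 2149.8 in control, and rose by 0.43 ± 0.11 (adjusted p = 0.039). ATP6V1H, a regulatory subunit, was the third, at 356, 426 and 351 on the 24 h arrays, against 278, 221 and 239.5 in control. It had the largest difference of the sector, 0.59 ± 0.17, and was called with the block alone (adjusted p = 0.062; 0.0076 with it).

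By their brightest probe sets, the remaining 5 V1 subunits were called in neither fit against control and had differences of -0.24 to 0.13. ATP6V1B2, which pairs with the catalytic subunit, read 267, 188 and 286 at 24 h, against 222, 304 and 364 in control (-0.24 ± 0.22, limma adjusted p = 0.61; 0.3 with the block). In replicate 1 it was higher at 24 h and in replicates 2 and 3 lower. With the block and without control replicate 1, a choice made after the data were seen, the difference was -0.47 at an adjusted p of 0.031. ATP6V1D and ATP6V1F, which form part of the central rotor, differed by -0.16 ± 0.15 and 0.12 ± 0.17, and ATP6V1C1 and ATP6V1G1, of the stalks and their collar, by 0.12 ± 0.09 and 0.13 ± 0.12. The accessory proteins ATP6AP1 and ATP6AP2, which help assemble the pump, differed by 0.17 ± 0.17 and 0.23 ± 0.18, and neither was called in either fit.

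**Figure D3:**
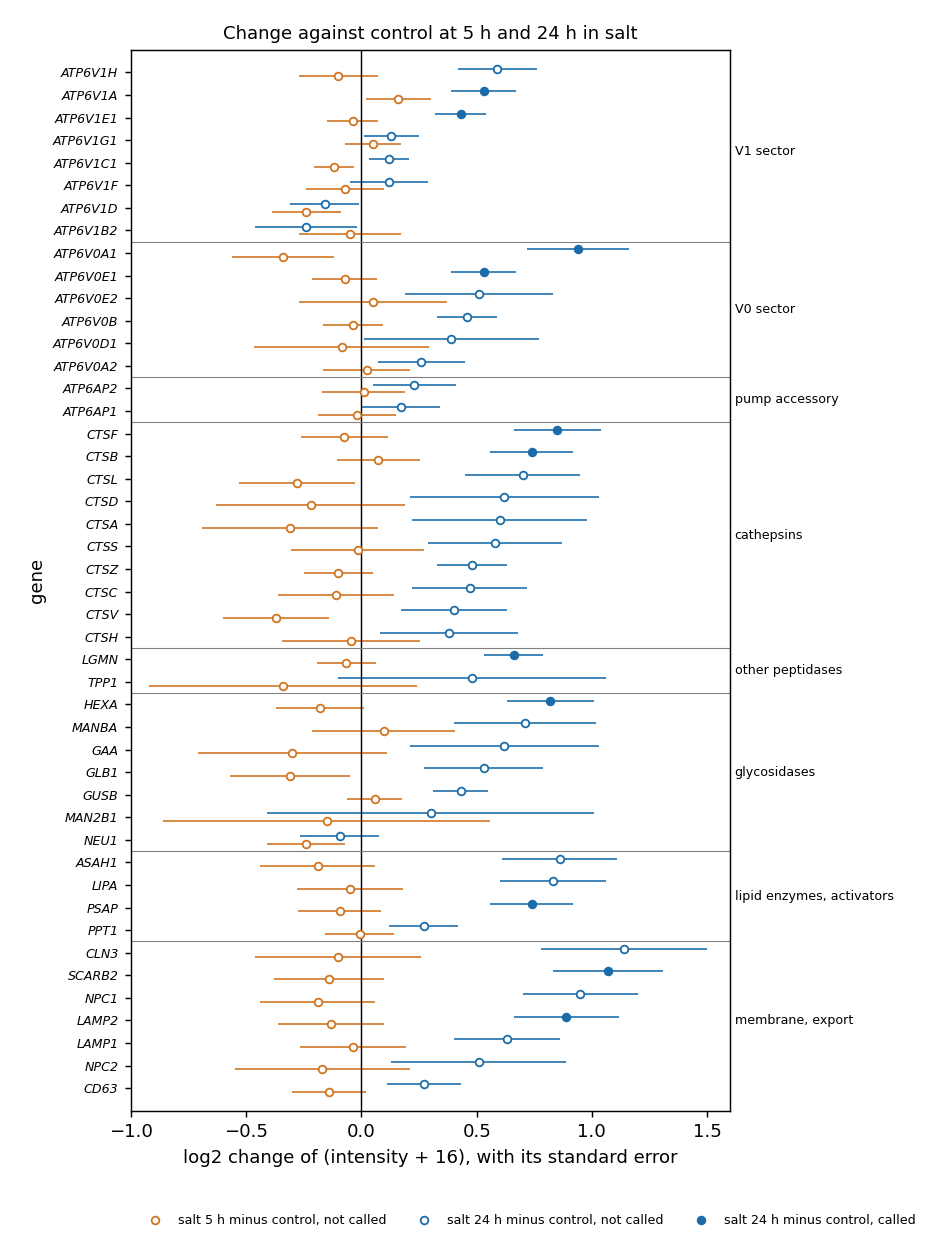
Log2 change of (intensity + 16) with its SE (horizontal axis) for the 46 tested genes (down the page, by class), at 24 h minus control in blue and 5 h minus control in orange; filled points were called by limma without the block. The 24 h points lie right of 0 for 43 genes, and the 5 h points lie close to 0, from -0.37 to 0.16.

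The number of genes that passed changed when single arrays were left out. Without control replicate 2, control replicate 3 or 24 h replicate 1 the count of 11 went to 0, without 5 h replicate 1 to 1, without 24 h replicate 2 to 2 and without 24 h replicate 3 to 5. Without control replicate 1 it went to 15. The median difference stayed between 0.44 and 0.67 in these 9 refits.

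After 5 h in salt the same genes stood close to control. Of the 46, 0 rose and 0 fell in the limma fit, against 0.233% and 0.25% of all probe sets, and with the block the counts were again 0 and 0, against 2.45% and 3.41%. At an unadjusted p under 0.05 the counts were 0 and 0 too, against 2.71% and 4.5%. The median difference was -0.10, from -0.37 in CTSV to 0.16 in ATP6V1A, beside a median of -0.03 over all probe sets, and 8 of 46 means were above control, against 43.9%.

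In 2 genes the arrays of 5 h lay wholly below control, against 6.6% of probe sets, and in 0 wholly above, against 4.04%. NEU1 read 103, 92.6 and 103 at 5 h, against 142, 105 and 116 in control (-0.24 ± 0.17), and ATP6V1C1 read 2832, 3032 and 2975 at 5 h, against 3234, 3255 and 3107 in control (-0.12 ± 0.09). Both had a limma adjusted p of 1.0 without the block. CTSB and ATP6V1A were the 2 genes above control in all 3 numbers, against 17.5% of probe sets, and 8 were below in all 3, against 23.1%.

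The low median at 5 h came from 1 pair of arrays. Between 5 h and control, the median over the 46 genes was -0.36 in replicate 1, 0.0017 in replicate 2 and 0.03 in replicate 3. Control replicate 1 was above both other controls in 37 of the 46 genes, against 29.1% of probe sets. The median of log2(intensity + 16) over the 46 genes was 10.33 on that array, 9.91 and 10.07 on the other controls, 10.07, 9.98 and 10.14 at 5 h, and 10.71, 10.6 and 10.44 at 24 h. It thus lay between the other arrays without long salt and the arrays of 24 h, as it also did on the second principal component. Without control replicate 1 the 5 h median was 0.04, and the 24 h median was 0.67.

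**Figure D4:**
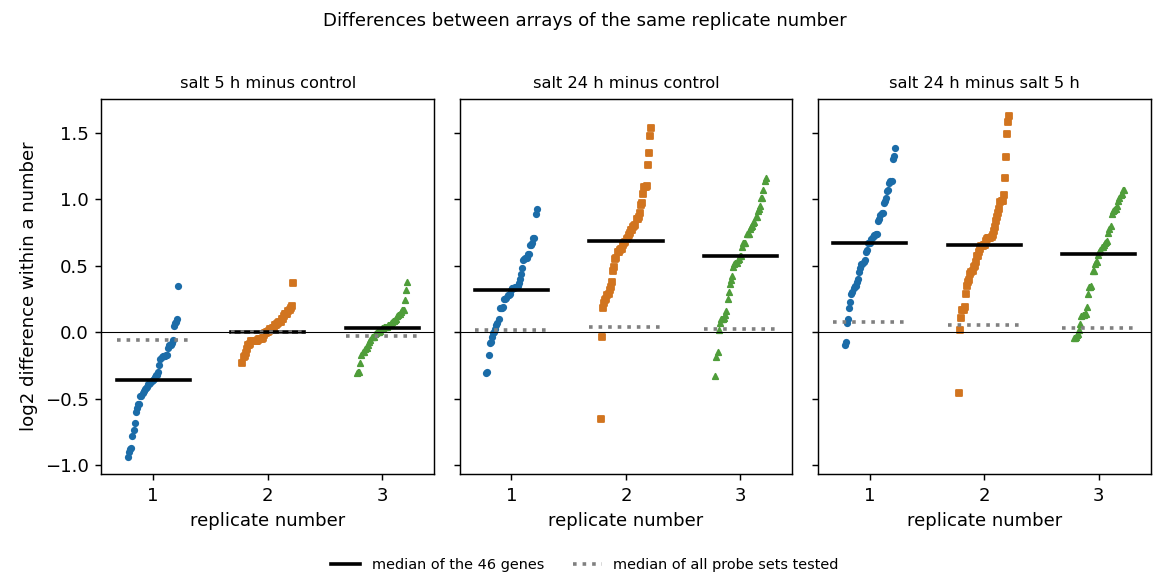
Log2 difference (vertical axis) between arrays of the same replicate number (horizontal axis) for each of the 46 genes, with 1 panel per comparison. Black lines are medians of the 46 genes and dotted lines medians of all probe sets tested. At 24 h minus control the black lines are at 0.32, 0.69 and 0.57, at 5 h minus control at -0.36, 0.0017 and 0.03, and at 24 h minus 5 h at 0.67, 0.66 and 0.59.

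Between the 2 salt times the rise was present as well. The difference itself holds no control array, but the controls entered its SE and adjusted p through the shared fit. The same 24 h arrays also served against control, so the 2 comparisons are not independent. Of the 46, 17 were higher at 24 h than at 5 h and 0 lower in the limma fit, against 8.01% and 6.15% of all probe sets. Leaving out control replicate 1, 2 or 3 changed the 17 to 18, 16 and 18. With the block 38 were higher and 0 lower, against 24.2% and 19.6%. The median difference was 0.61, from -0.19 in ATP6V1B2 to 1.27 in ATP6V0A1, beside 0.06 over all probe sets, and it was alike within the numbers, at 0.67, 0.66 and 0.59. The arrays of 24 h lay wholly above those of 5 h in 27 genes, against 18.1% of probe sets, and 41 genes were higher in all 3 numbers, against 36.4%. In 45 genes the mean was higher, against 55.7% of probe sets. At an unadjusted p under 0.05, 27 genes were higher and 0 lower, against 16.2% and 12.8%.

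The called genes covered the pump, the proteases, the lipid enzymes and the membrane. Of the 17, 10 were also called against control, and ATP6V1A was the 1 gene called against control that was not called here (0.37 ± 0.14, limma adjusted p = 0.11; 0.019 with the block). ATP6V0A1 read 511, 540.4 and 398 at 24 h, against 194, 169.6 and 205 at 5 h, with an adjusted p of 0.0094, and LGMN read 1957, 1630.0 and 1740.0 at 24 h, against 1084, 979 and 1128 at 5 h (0.73 ± 0.13), with the same adjusted p. These 2 genes kept their call when any 1 of the 9 arrays was left out.

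Another 7 genes that missed the threshold against control passed it here. CTSL read 83.4, 114 and 109 at 24 h, against 45.1, 36.3 and 49.8 at 5 h (0.98 ± 0.25, limma adjusted p = 0.034). NPC1 read 530.4, 381 and 581 at 24 h, against 193, 184 and 275 at 5 h (1.14 ± 0.25, adjusted p = 0.021). ASAH1 read 1966, 1848 and 2780.2 at 24 h, against 885, 897 and 1376 at 5 h (1.06 ± 0.25, adjusted p = 0.025). In each of the 3 the salt groups were apart. LIPA (0.88 ± 0.23), CTSZ (0.58 ± 0.15), ATP6V0B (0.50 ± 0.13) and ATP6V1H (0.69 ± 0.17) passed as well.

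The lipid enzymes gave 3 calls of 4 in this comparison, the membrane genes 3 of 7, the membrane sector of the pump 3 of 6, the cathepsins 4 of 10, the V1 sector 2 of 8, the glycosidases 1 of 7 and the further peptidases 1 of 2. With the block all 10 cathepsins were higher at 24 h than at 5 h, as were all 7 membrane genes and 6 glycosidases. So were 5 V0 subunits, 4 V1 subunits, 4 lipid genes and both peptidases. Of all probe sets, 8.01% were higher between these times without the block and 24.2% with it. SCARB2 and HEXA had differences of 1.21 ± 0.24 and 0.99 ± 0.19, and GAA, which overlapped between 24 h and control, read 263, 218 and 418 at 24 h, against 134, 107 and 213 at 5 h, without overlap (0.92 ± 0.41, limma adjusted p = 0.18; 0.0055 with the block). The count of 17 depended most on the salt arrays numbered 1: leaving out that of 5 h gave 2 genes, and leaving out that of 24 h gave 3.

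Some genes were set by replicate number more than by salt. The array numbered 3 was the lowest of its group in all 3 groups for 14 of the 46 genes (30.4%), near the 28.7% of all probe sets. It was the highest for 7 (15.2%), against 24.3%. Such separation was thus not particular to these genes. MAN2B1, the lysosomal alpha-mannosidase, read 83.5, 70.2 and 14.2 in control, 57.5, 79.2 and 10.9 at 5 h, and 106, 114 and 14.6 at 24 h. The array numbered 3 was lower than the other 2 of its group by a mean of -1.77 on the log2 scale, more than any difference by time in the 46 genes. TPP1 followed at -1.33, ATP6V0D1 at -0.94, CTSD at -0.91 and CTSA at -0.83, while NPC2 went the other way at 0.87. Each of these 6 genes, named after their values were seen, was called with the block and not without it, against control or against 5 h.

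**Figure D5:**
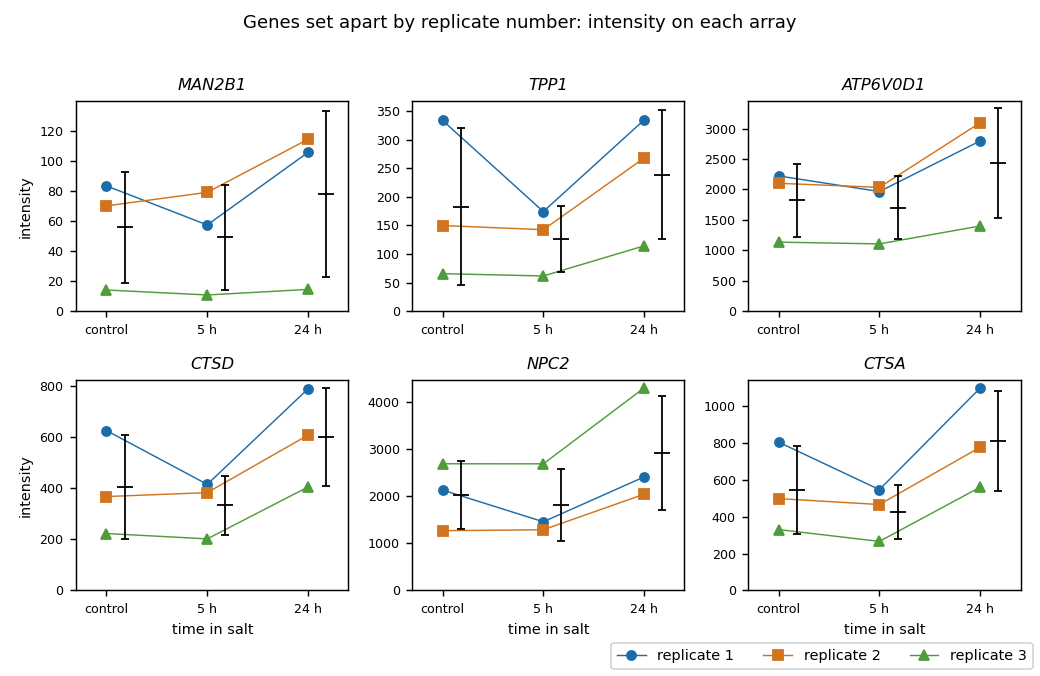
Intensity (vertical axis, from 0) at control, 5 h and 24 h (horizontal axis) of the 6 genes with the largest difference between the array numbered 3 and the other 2 of its group. Coloured lines join arrays of the same replicate number and black bars are means with SD (n = 3). The green line of replicate 3 lies lowest in 5 panels and highest for NPC2, and in each panel all 3 lines end at 24 h above their 5 h point.

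Where a gene had more than 1 probe set, the others mostly pointed the same way. There were 12 such genes with 20 further probe sets, of which 17 passed the filter and 16 had a positive difference between 24 h and control, but 0 were called without the block. The exception was the second probe set of ATP6V1C1, at -0.32, against 0.12 for the brightest one, so the 2 disagree in sign. With the block that second probe set was lower at 24 h than in control (limma adjusted p = 0.038) and than at 5 h (-0.41, adjusted p = 0.011), where the brightest one was higher (0.24, adjusted p = 0.023). Of the other further probe sets, 9 from 5 genes (PSAP, ATP6V1A, CTSB, CLN3 and LAMP1) were higher at 24 h than in control with the block. Taking the mean of all probe sets of a gene gave 8 genes that rose at 24 h against control and -0.10 for ATP6V1C1.

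The wider pathway was followed through lists of genes outside the main set. Of 146 genes tested from lists of other hydrolases, other membrane proteins, sorting, fusion, nutrient sensing, autophagy and cathepsin inhibitors, 7 rose and 0 fell at 24 h against control, with a median of 0.18. That is a share of 4.79% higher, close to the 4.28% of all probe sets. With the block 49 rose (33.6%, against 18.3% of probe sets) and 8 fell (5.48%, against 17.5%). At 5 h 0 rose and 0 fell, against 0.233% and 0.25% of all probe sets. With the block 1 rose at 5 h (0.685%, against 2.45%) and 3 fell (2.05%, against 3.41%). At 24 h against 5 h, 16 were higher (11%, against 8.01%) and 0 lower (against 6.15%), and with the block 63 were higher (43.2%, against 24.2%) and 11 lower (7.53%, against 19.6%).

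The lists are given with the block, at 24 h against control, beside 18.3% of all probe sets higher and 17.5% lower. Other hydrolases gave 14 of 20 higher (70%) and 0 lower, and autophagy genes 14 of 34 higher (41.2%) and 2 lower. The 22 sorting genes gave 1 higher (4.55%) and 3 lower (13.6%). Other membrane proteins gave 7 of 18 higher (38.9%) and 1 lower. Fusion genes gave 7 of 24 higher (29.2%) and 1 lower, and cathepsin inhibitors 2 of 5 higher (40%) and 0 lower. Nutrient-sensing genes gave 4 of 23 higher (17.4%), near the share of all probe sets, and 1 lower. No test of a difference between lists was made.

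The 7 pathway genes that rose at 24 h came from 4 lists. CST3, the cysteine protease inhibitor cystatin C, read 4512, 3813 and 5486 at 24 h, against 2629.7, 1434 and 1497 in control, and rose by 1.35 ± 0.23 (limma adjusted p = 0.013). CTSK, the collagen-degrading cathepsin kept out of the main set by its rule, read 4689, 5054 and 4946 at 24 h, against 3884, 3371 and 2958 in control, and rose by 0.53 ± 0.11 (adjusted p = 0.026). Inhibitor and protease thus both rose on the same arrays. The sialic acid esterase SIAE rose by 0.81 ± 0.19, the membrane protein LAPTM4B by 0.82 ± 0.14 and the cobalamin transport protein LMBRD1 by 0.68 ± 0.11.

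Of 23 nutrient-sensing genes tested, 2 rose at 24 h against control without the block (8.7%, against 4.28% of all probe sets). Both encode negative regulators of the growth kinase mTORC1, which is activated on the lysosome. With the block 4 rose (17.4%, against 18.3%) and 1 fell (4.35%, against 17.5%). The block alone called RRAGC higher (0.59 ± 0.31, limma adjusted p = 0.0024) and EIF4EBP1 lower (-0.88 ± 0.55, adjusted p = 0.00076). TSC1 read 302.0, 431 and 232 at 24 h, against 82.9, 119 and 89.7 in control (1.55 ± 0.30, limma adjusted p = 0.019), and NPRL2 read 720.3, 732 and 595 at 24 h, against 391, 331 and 339.6 in control (0.91 ± 0.15, adjusted p = 0.011). TFEB, the transcription factor known for driving lysosomal genes, read 114, 116 and 105 at 24 h, against 103, 109 and 99.6 in control (0.09 ± 0.15, adjusted p = 0.82). Its relatives TFE3 and MITF differed by 0.05 ± 0.40 and 0.38 ± 0.20. MITF was called higher with the block alone (limma adjusted p = 0.32 without it and 0.048 with it).

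Markers of other cells were followed because macrophages and osteoclasts are rich in lysosomes. At 24 h against control 4.28% of all probe sets were called higher and 4.32% lower. Of 21 macrophage and leukocyte markers 17 were measured, 11 passed the filter and 1 was called. CD14 read 294, 233 and 329.8 at 24 h, against 99.2, 83.4 and 104 in control (1.43 ± 0.19, limma adjusted p = 0.0054). The summed intensity of the list was 783.5 to 838.9 at 24 h, against 516.4 to 611.8 in control, and 570.8 to 637.1 at 5 h. Without CD14 the sum was 453.7 to 606.2 at 24 h, against 412.3 to 514.2 in control, so that the groups overlapped. Over the 11 markers tested the median difference was 0.1, from -0.13 to 1.43. The leukocyte antigen gene PTPRC read 26.0, 36.8 and 17.2 at 24 h, against 13.4, 24.4 and 6.1 in control (0.50 ± 0.39). C1QA read 171.8, 207.8 and 185.3 at 24 h, against 202.5, 180.7 and 152.0 in control (0.08 ± 0.18). CD68, a lysosomal glycoprotein of macrophages, differed by 0.03 ± 0.20. ITGAM, TYROBP, FCER1G, C1QC, MSR1 and CD79A lay below the filter. Of 10 osteoclast markers 5 were measured and 4 tested, CTSK was the 1 called, and the sum was 5608.5 to 5997.9 at 24 h, against 3682.9 to 4823 in control. Without CTSK the sum was 863.5 to 943.9 at 24 h, against 724.7 to 939.1 in control. The acid phosphatase gene ACP5 read 99.7 to 152 at 24 h, against 85.2 to 102.5 in control.

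Other marker lists held called genes at 24 h too. Of all probe sets, 4.28% were higher and 4.32% lower without the block, and 18.3% and 17.5% with it. Of 5 annulus and tendon-type fibroblast markers tested, COL12A1, a fibril-associated collagen gene, rose by 1.73 ± 0.18 (limma adjusted p = 0.0033) and THY1 by 0.74 ± 0.18 (adjusted p = 0.037), while COL1A1 and COL1A2 had differences of -0.32 ± 0.58 and -0.22 ± 0.14 and were called lower with the block alone (adjusted p = 0.046 and 0.026). Of 7 nucleus pulposus markers tested, BNIP3, also known as a hypoxia-inducible gene, fell by 1.64 (adjusted p = 0.0058), and ACAN and VCAN were called higher with the block alone. Of 7 muscle markers tested, CKM rose by 1.99 ± 0.45 (adjusted p = 0.032) and MYL1 fell by 1.26 (adjusted p = 0.017). ACTA1 was called lower with the block alone (-0.60 ± 0.24, limma adjusted p = 0.0023). Of 6 endothelial and 2 erythroid markers tested, 0 were called without the block, and with it 2 endothelial markers were higher and 1 lower. The part of such cells in the lysosomal differences was not tested.

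Control probe sets for RNA quality and hybridisation were followed as well. The ratio of the 3′ to the 5′ actin control probe set was 2.83, 2.83 and 3.31 at 24 h and 2.51, 2.86 and 2.69 in control, on the log2 scale, and the groups overlapped. The same ratio for GAPDH was near 0 on every array. Spiked-in control probe sets averaged 9.17 to 9.38 on the arrays numbered 3 and 9.77 to 10.03 on the others, so they separated by replicate number. Their part in the differences was not tested. Without the 3 arrays numbered 3, a choice made after the data were seen, the median difference between 24 h and 5 h was 0.66.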

How the data were processed

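RNA of 9 cultures was measured on 1-colour Affymetrix bovine arrays. The deposited intensity values are those of the authors, and per the submitters' processing notes PLIER and Affymetrix Expression Console were used; no source used here gives the settings or any normalization between arrays, and none was added. Probe sets were named from the platform annotation, with 13292 of them carrying 1 symbol, 86 several and 10638 none, and only those of 1 symbol were used for genes; all 50 genes were found in the RefSeq table with their symbols unchanged. Of 24128 probe sets, 112 manufacturer controls were left out, and the 18012 with a mean at or above the 25th percentile were tested.

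Values were taken as log2(intensity + 16) and fitted with limma 3.58.1 in R 4.3.3 (lmFit, eBayes with an intensity trend, all 9 arrays, Benjamini-Hochberg adjustment over all probe sets in each comparison). The pseudocount understates differences of dim genes. Replicate numbers come from the labels; deviations of same-numbered arrays from their group means correlated at 0.56 to 0.9, so the numbers pair the arrays, and the fit with the number as a block is given beside results it changes. The fit was tested on simulated data.

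The genes, their classes and all lists were chosen with earlier results of these data known, so counts and medians over them carry no p-value. Named genes are those called in any comparison, the 2 largest and the smallest difference at 24 h in each class, the 10 with the smallest adjusted p among the 20 called with the block alone, and called genes of the pathway lists; others named (among them markers, TFEB and TFE3) fall outside that rule. In all, 22 alternatives were run. Promoter and protein sequences were not analysed here.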

Additional observations from a re-analysis of the deposited data

Results flagged for a closer look

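The change from control at 24 h differed from that at 5 h in 17 of the 46 genes, by the test of 24 h against 5 h. The shared controls cancel from that difference but still enter its SE. All 17 were higher at 24 h, where 8.01% of all probe sets were higher and 6.15% lower. SCARB2, for example, was 1.07 above control at 24 h and -0.14 from it at 5 h on the log2 scale. Arrays within a group were not screened for outliers, since each group holds 3.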

How the results depend on the processing

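Limits come first from the 3 arrays a group: a call rested on single arrays, and of the 11 genes that rose at 24 h against control 0 kept their call in all 9 refits without 1 array, and 2 of 17 against 5 h. Between 24 h and control, leaving out 1 array gave 0 to 15 genes higher and a median of 0.44 to 0.67. Between 24 h and 5 h it gave 2 to 18 genes and a median of 0.57 to 0.68, and at 5 h against control a median of -0.18 to 0.04. For the pathway lists it gave 0 to 13 higher and 0 to 1 lower at 24 h against control, and 4 to 20 higher and 0 to 1 lower against 5 h.

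Against control at 24 h, the count of 11 genes was 7 with no filter on low values, 6 with arrays centred on their medians, 2 in a fit of only the 6 arrays compared, 5 without the intensity trend and 33 with the replicate block. With settings added after the data were seen, it was 6 without the arrays numbered 3, 19 with the block and without those arrays, and 35 with the block and without control replicate 1, where 1 gene (ATP6V1B2) was lower. Against 5 h, the count of 17 was 10 after centring, 38 with the replicate block, 31 with the block and without the arrays numbered 3, and 38 with the block and without control replicate 1. The median there was 0.49 after centring and 0.66 without the arrays numbered 3, with or without the block. For the pathway lists, the 7 genes higher against control were 49 with the replicate block (8 lower), 11 without the arrays numbered 3 (1 lower), 25 with both (3 lower), and 48 with the block and without control replicate 1 (7 lower). Against 5 h, the 16 were 63 with the block (11 lower), 28 without the arrays numbered 3 (1 lower), 45 with both (2 lower) and 65 with the block and without control replicate 1 (13 lower). In a fit of 6 arrays, or after quantile normalization, 1 was lower there. At 5 h against control the block gave 1 higher (0.685%, against 2.45% of all probe sets) and 3 lower (2.05%, against 3.41%).

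Some differences changed sign, none of them called without the block. The mean of all probe sets turned ATP6V1C1 to -0.1 at 24 h against control and -0.087 against 5 h. Centring turned ATP6V1D to -0.042 and ATP6V1G1 to -0.039 against 5 h, and quantile normalization turned NEU1 to -0.0027. NEU1 against control was 0.0043 with the block and without control replicate 1. Without 1 array, the differences between 24 h and control ran over -0.24 to 0.98 for MAN2B1, -0.18 to 0.014 for NEU1 and -0.036 to 1.01 for TPP1. At 5 h against control they ran over -0.61 to 0.0089 for CTSA and -0.86 to 0.19 for TPP1, and between 24 h and 5 h over -0.04 to 0.18 for ATP6V1D, -0.015 to 0.16 for ATP6V1G1 and -0.089 to 1.14 for MAN2B1. The cause was not tested for any of these.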
